A study of Mus musculus with 5 samples.

Results

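The genes described here are 10 members of the canonical Wnt pathway in mouse E14 embryonic stem cells. They were chosen by name, with earlier results of these data known. They are the 4 TCF/LEF transcription factors (Lef1, Tcf7, Tcf7l1, Tcf7l2), their partner beta-catenin (Ctnnb1), and 5 genes known as targets or feedback regulators of the pathway (Axin2, Sp5, Nkd1, Dkk1, Lgr5). They are 10 of 21930 genes with a summed transcript level, and all 10 were measured, through 20 RefSeq transcripts. RNA was sequenced from 5 libraries, 1 per group. The HP libraries carry the label of E14 cells overexpressing Hk2 and Pkm2, and were kept with leukemia inhibitory factor (LIF), kept for 24 h without LIF and then given it again, or kept for 40 days without LIF. The normal libraries are of E14 cells labelled as normal, with LIF and after the same 24 h withdrawal and return. All carry the strain label C57BL/6. The sources used here do not say how the overexpression was made or whether a line is 1 clone.

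In the canonical pathway a Wnt ligand binds a Frizzled receptor and an Lrp5 or Lrp6 co-receptor, which stops a complex of Axin, Apc and Gsk3 from marking beta-catenin for degradation. Beta-catenin then enters the nucleus and binds TCF/LEF proteins, which sit on DNA through an HMG box. In mouse embryonic stem cells Tcf7l1 is known mainly as a repressor of pluripotency genes, beta-catenin is known to relieve that repression, and Lef1 is known as an early gene of the epiblast state that follows naive pluripotency.

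The sequences below lie upstream of Lef1 and Dkk1, which had the widest ranges of log2(FPKM + 1) among the 10 genes, and of Sp5 and Axin2, which are widely used as direct target genes of the pathway. They are from RefSeq, placed on mm9 (NCBIM37) by exact match. Capitals mark TCF/LEF heptamers, searched on both strands as CTTTG followed by 2 bases that are each A or T, with overlapping matches counted. The Lef1 sequence (chr3:130812965-130813214, plus strand) and the Axin2 sequence (chr11:108781413-108781662, plus strand) are the 250 bases before the RefSeq start and held no match. The Sp5 sequence (chr2:70312730-70312979, plus strand) is the same stretch of that gene and held 2 matches, beginning 222 and 104 bases before the start. The Dkk1 sequence (chr19:30624076-30624105, minus strand) is a stretch of 30 bases with 2 matches, beginning 117 and 98 bases before the RefSeq start. The Gencode annotation of mm9 starts Dkk1 further upstream, so this stretch lies in its 5' untranslated region there.
Lef1: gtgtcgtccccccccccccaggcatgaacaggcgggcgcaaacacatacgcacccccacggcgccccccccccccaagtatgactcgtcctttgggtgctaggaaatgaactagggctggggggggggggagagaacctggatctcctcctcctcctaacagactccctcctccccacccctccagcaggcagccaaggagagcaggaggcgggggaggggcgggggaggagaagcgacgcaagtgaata
Axin2: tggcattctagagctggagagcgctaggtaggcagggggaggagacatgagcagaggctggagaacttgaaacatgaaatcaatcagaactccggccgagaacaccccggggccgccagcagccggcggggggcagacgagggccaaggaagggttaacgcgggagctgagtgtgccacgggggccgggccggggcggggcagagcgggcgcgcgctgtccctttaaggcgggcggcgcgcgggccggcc
Sp5: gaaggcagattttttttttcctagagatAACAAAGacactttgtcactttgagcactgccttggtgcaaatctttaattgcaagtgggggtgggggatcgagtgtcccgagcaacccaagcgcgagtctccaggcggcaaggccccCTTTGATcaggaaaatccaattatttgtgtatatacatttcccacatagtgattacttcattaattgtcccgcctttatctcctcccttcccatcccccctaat
Dkk1: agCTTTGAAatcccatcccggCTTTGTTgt

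Of 32841 such windows of 250 bases before a RefSeq start in the mouse genome, 14.8% held at least 1 of these heptamers and 1.43% held 2 or more. Of the 15 windows found for 9 of the 10 genes (all but Lgr5), 4 held a match. Besides those of Sp5 and Dkk1, they belonged to an internal start of Lef1 and an internal start of Tcf7l2. A match is a run of letters only, and these windows do not cover the introns or distant elements through which the pathway may act.

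Values are FPKM, fragments scaled to transcript length and to the number of mapped fragments, summed over the transcripts of a gene. Depth was estimated from the spacing of the lowest values at 36200000 to 40400000 fragments per library. From this and transcript length, an approximate number of fragments and an exact Poisson 95% interval were set beside each level. Such intervals cover counting error only, and with 1 library per group no spread between cultures could be measured. With LIF, Hk2 stood at 98.6 FPKM in HP cells, against 76.2 FPKM in normal cells, and Pkm at 567 FPKM in HP cells, against 510 FPKM in normal cells. After withdrawal, Hk2 stood at 59.0 FPKM in HP cells, against 49.7 FPKM in normal cells, and Pkm at 564 FPKM in HP cells, against 611 FPKM in normal cells. Neither reached a 2-fold difference, so the HP libraries are named by their label only. The stem cell markers Pou5f1, Sox2, Nanog and Zfp42 were present in every library. Their summed level was lowest in HP cells at 40 days, at 970 FPKM, against 1340 to 1780 FPKM in the other 4 libraries. Pou5f1 was the largest part of each sum. In HP cells Nanog stood at 183 FPKM with LIF, 54.5 FPKM after withdrawal and 29.6 FPKM at 40 days, and Zfp42 at 278, 128 and 40.9 FPKM. In normal cells Nanog stood at 59.3 FPKM after withdrawal, against 150 FPKM with LIF, and Zfp42 at 118 FPKM, against 266 FPKM. The 5 fibroblast and feeder markers summed to 0.813 to 4.64 FPKM, with Thy1 the highest of them in every library. Library levels here are of bulk RNA, in which fewer cells of a type and less RNA per cell cannot be told apart.

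Lef1, a TCF/LEF factor (mm9 chromosome 3, 130813389 to 130927274, plus strand), was nearly absent with LIF and present in all 3 libraries taken after its removal. With LIF it stood at 0.202 FPKM in HP cells and 0.0674 FPKM in normal cells, which is about 28 and 9 fragments. After the 24 h withdrawal it stood at 8.16 FPKM in HP cells and 4.16 FPKM in normal cells, about 1029 and 531 fragments. At 40 days without LIF it stood at 3.26 FPKM in HP cells. The share of all genes that were likewise higher in all 3 libraries after LIF removal than in both with LIF was not computed. Otx2 and Sfrp2 were such genes too, so this order is not particular to Lef1. Within each culture HP cells had the higher Lef1 value. The log2 ratio of FPKM + 1 for the withdrawal was 2.93 in HP cells and 2.27 in normal cells. Limma was fitted to the 4 libraries other than the 40 day library and to all 9590 genes with a mean of at least 1 FPKM over the 5. Lef1 reached that mean only through the libraries taken after LIF removal, so the fit is no independent support for its difference. The withdrawal effect on Lef1 was 2.60 ± 0.26 on the log2 scale (SE, 4 libraries), higher in 2 of 2 cell types. Its limma adjusted p was 0.324, which did not pass 0.05. That was the smallest value in the fit, but other genes shared it, among them Fzd5, Sfrp2, Otx2 and Zfp42. The cell type effect on Lef1 was 0.50 ± 0.26 with a limma adjusted p of 0.570. At 40 days the Lef1 level was below that of HP cells after 24 h, with a log2 ratio of -1.10. Of 4 markers of the primed epiblast (Fgf5, Otx2, Dnmt3b and Pou3f1), 4 were at least 2-fold higher after withdrawal in HP cells and 2 in normal cells, Otx2 and Pou3f1. Of all genes, 11.9% in HP cells and 10.1% in normal cells differed 2-fold either way. Fgf5 stood at 0.0329 FPKM in HP cells and 0.0685 FPKM in normal cells with LIF. It reached the mean of 1 FPKM only through HP cells after LIF removal, so its place in the count is no support. In normal cells Dnmt3b stood at 31.7 FPKM after withdrawal, against 35.8 FPKM with LIF. The 4 genes summed to 20.1 FPKM in HP cells and 41.3 FPKM in normal cells with LIF, to 210 FPKM in HP cells and 70.6 FPKM in normal cells after withdrawal, and to 170 FPKM in HP cells at 40 days. Their part in the Lef1 level was not tested.

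Tcf7l1, formerly called Tcf3 and the main repressor of the family in embryonic stem cells, was the most abundant of the 4 in every library. Its gene is at mm9 chromosome 6, 72576372 to 72739248, minus strand. With LIF it stood at 22.6 FPKM in HP cells and 47.5 FPKM in normal cells. After withdrawal it stood at 59.4 FPKM in HP cells and 54.1 FPKM in normal cells, and at 40 days at 68.1 FPKM in HP cells. The low value of HP cells with LIF stood apart from the other 4 libraries, which lay between 47.5 and 68.1 FPKM. Both of its transcripts were low there. NM_009332 stood at 14.1 FPKM in HP cells and 31.3 FPKM in normal cells with LIF. NM_001079822 stood at 8.45 FPKM in HP cells and 16.2 FPKM in normal cells. The log2 ratio of HP over normal cells was -1.04 with LIF, at the 2-fold limit, and 0.13 after withdrawal. When libraries were rescaled by their median ratio the ratio with LIF was -0.99, and under quantile normalization it was -0.94, both under 2-fold. The cell type effect over both cultures was -0.45 ± 0.38 (SE, limma, 4 libraries), with a limma adjusted p of 0.639. The withdrawal effect was 0.77 ± 0.38, with a limma adjusted p of 0.526. The exons of Tcf7l1 overlap those of Gm15401 in the Gencode annotation. The library kit was taken not to mark strand, so reads of the pair were not separated.

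Tcf7l2, a TCF/LEF factor (mm9 chromosome 19, 55816300 to 56008144, plus strand), was low throughout and highest in HP cells with LIF. It stood at 3.35 FPKM in HP cells and 1.03 FPKM in normal cells with LIF, and at 1.82 FPKM in HP cells and 0.842 FPKM in normal cells after withdrawal. At 40 days it stood at 0.740 FPKM in HP cells. HP cells had the higher value in both cultures, with counting intervals of 3.08 to 3.63 FPKM in HP cells and 0.880 to 1.19 FPKM in normal cells with LIF. The cell type effect was 0.86 ± 0.22 (SE, limma, 4 libraries), higher in 2 of 2 cultures, with a limma adjusted p of 0.520 and an unadjusted p of 0.0423. The sum rests on a varying set of its 8 listed transcripts, of which 3 were at 0 in every library and only NM_001142922 was above 0 in all. That transcript stood at 0.870 FPKM in HP cells and 0.393 FPKM in normal cells with LIF. After withdrawal the order was the other way, at 0.403 FPKM in HP cells and 0.581 FPKM in normal cells, so the direction of the sum was not shared by each transcript. With the highest transcript in place of the sum, the log2 ratio of HP over normal cells with LIF was 0.42, against 1.10 for the sum.

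Tcf7, formerly called Tcf1, was measured by a single transcript, NM_009331, and its level could be read in 3 libraries only. Its gene is at mm9 chromosome 11, 52065873 to 52096681, minus strand. With LIF it stood at 2.02 FPKM in HP cells and 1.59 FPKM in normal cells, and their counting intervals overlapped. After withdrawal it stood at 3.11 FPKM in HP cells and was listed at 0 in normal cells. It was also listed at 0 in HP cells at 40 days. A level of 1.59 FPKM is about 158 fragments, and 749 of the 9590 genes tested were listed at 0 in some library. Among those are tubulin genes that every cell uses, Tubb4b at 398 FPKM in HP cells and 0 in normal cells with LIF, and Tuba1b at 1605 FPKM in HP cells and 0 in normal cells after withdrawal. Such zeros may be failed estimates, and no fold is given for Tcf7.

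Taken as a family, the 4 factors summed to 28.1 FPKM in HP cells and 50.2 FPKM in normal cells with LIF, and to 72.5 FPKM in HP cells and 59.1 FPKM in normal cells after withdrawal. At 40 days they summed to 72.1 FPKM in HP cells. Tcf7l1 made up 80.2% to 94.7% of that sum across the 5 libraries. Lef1 made up 0.717% in HP cells and 0.134% in normal cells with LIF, and 11.3% in HP cells and 7.05% in normal cells after withdrawal. At 40 days its share was 4.52% in HP cells. Lef1 was the least abundant of the 4 in both libraries with LIF and second to Tcf7l1 in HP cells after withdrawal. In normal cells after withdrawal and in HP cells at 40 days Tcf7 is listed at 0, which may be a failed estimate, so the sums and shares there take its level as 0 and no order is given.

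**Figure D1:**
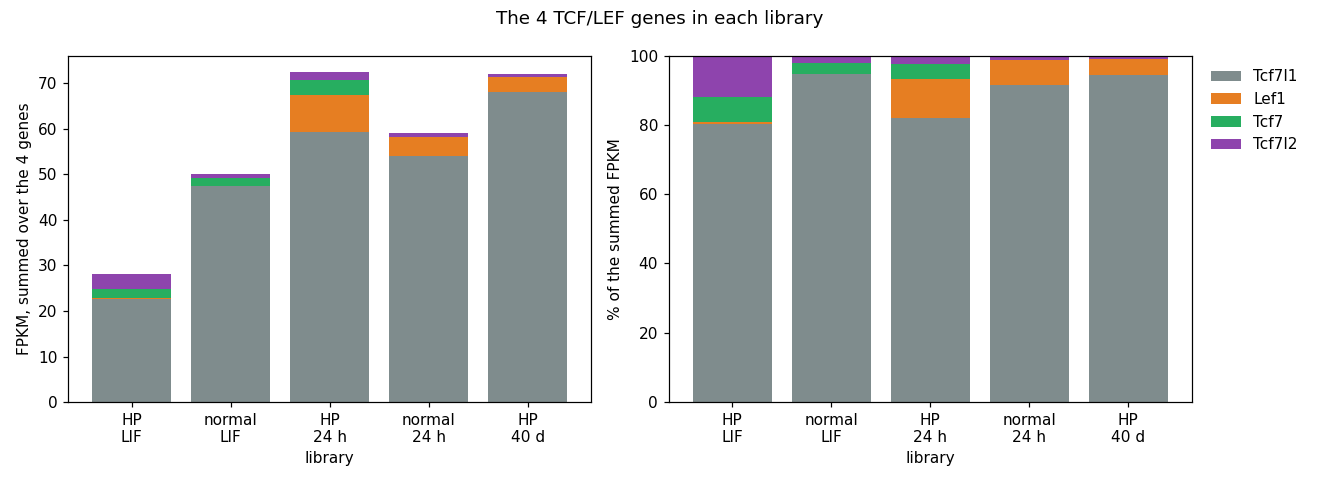
Summed FPKM of Tcf7l1, Lef1, Tcf7 and Tcf7l2 in each of the 5 libraries (left) and each gene's percentage of that sum (right), with 1 library per bar. Tcf7l1 is the largest part of every bar, and the Lef1 part is 11.3% in HP cells after withdrawal, against 0.717% in HP cells with LIF.

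Ctnnb1, which encodes beta-catenin, hardly differed between the libraries. Its gene is at mm9 chromosome 9, 120838334 to 120869625, plus strand. It stood at 218 FPKM in HP cells and 222 FPKM in normal cells with LIF, at 208 FPKM in HP cells and 221 FPKM in normal cells after withdrawal, and at 185 FPKM in HP cells at 40 days. The highest level was 1.20 times the lowest. The withdrawal effect was -0.041 ± 0.074 and the cell type effect -0.056 ± 0.074 on the log2 scale (SE, limma, 4 libraries), with limma adjusted p values of 0.826 and 0.754. Its mRNA says nothing of the protein, whose level the pathway sets by degradation.

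The 2 Ctnnb1 transcripts behind that sum were divided differently between libraries. NM_001165902 made up 37.9% of the sum in HP cells and 18.5% in normal cells with LIF. After withdrawal it made up 45.8% in HP cells and 49.9% in normal cells, and at 40 days 38.2% in HP cells. The lowest share was that of normal cells with LIF, and no interval can be given for a division that the estimation software made between transcripts that share most of their length. Exons of Ctnnb1 overlap those of Ulk4 in the Gencode annotation, so reads of the shared bases were not separated.

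**Figure D2:**
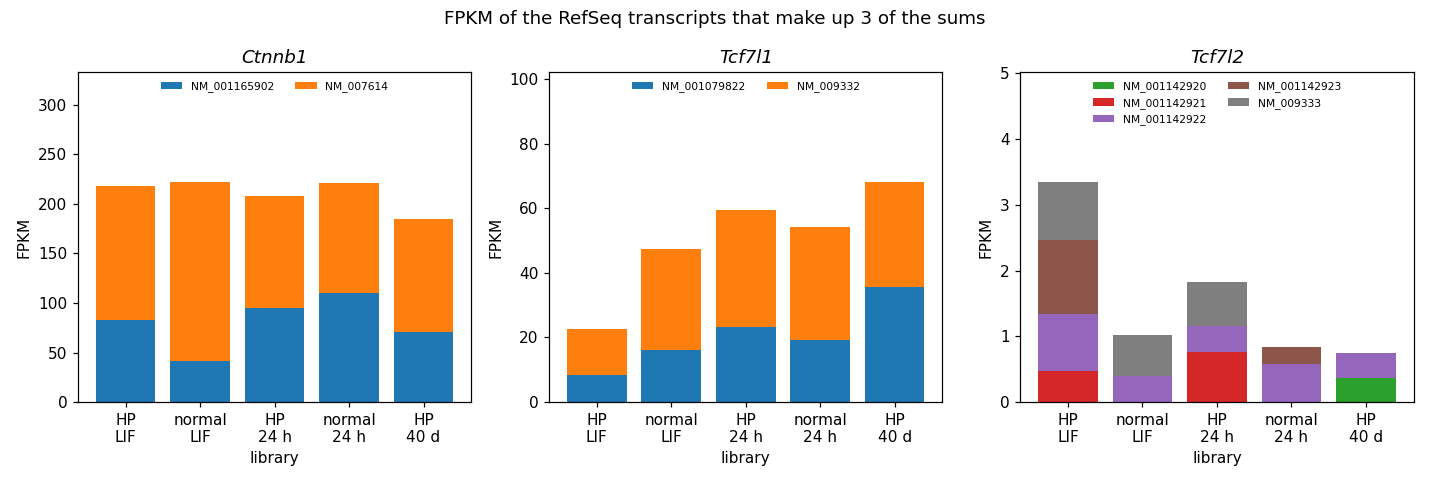
FPKM of each RefSeq transcript of Ctnnb1, Tcf7l1 and Tcf7l2, stacked, in each of the 5 libraries, with transcripts at 0 in every library left out. The Ctnnb1 sum stays between 185 and 222 FPKM while the part of NM_001165902 varies, and the Tcf7l2 sum is made of different transcripts in different libraries.

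Among the targets, Axin2 was low in every library, and in both cell types its level after withdrawal was under that with LIF. Axin2 is a scaffold of the beta-catenin degradation complex that the pathway itself induces (mm9 chromosome 11, 108781663 to 108812097, plus strand). It stood at 2.18 FPKM in HP cells and 1.18 FPKM in normal cells with LIF, and at 1.35 FPKM in HP cells and 0.699 FPKM in normal cells after withdrawal. At 40 days it stood at 0.532 FPKM in HP cells, about 89 fragments. HP cells were higher than normal cells in both cultures, and in HP cells the order ran down from LIF through 24 h to 40 days. Counting intervals overlapped between HP cells after withdrawal (1.18 to 1.55 FPKM) and normal cells with LIF (1.03 to 1.36 FPKM), and between HP cells at 40 days and normal cells after withdrawal. The cell type effect was 0.51 ± 0.15 (SE, limma, 4 libraries), higher in 2 of 2 cultures, with a limma adjusted p of 0.524. The withdrawal effect was -0.40 ± 0.15, lower in 2 of 2 cell types, with a limma adjusted p of 0.478. At 40 days the log2 ratio to HP cells with LIF was -1.05. Exons of Axin2 overlap those of Gm11670, with the same limit on strand.

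Sp5, a zinc finger factor known to be induced directly by beta-catenin, was detected mainly with LIF. Its gene is at mm9 chromosome 2, 70312980 to 70315786, plus strand, just downstream of the printed sequence. With LIF it stood at 0.417 FPKM in HP cells and 1.56 FPKM in normal cells, about 35 and 128 fragments, with counting intervals of 0.287 to 0.574 FPKM in HP cells and 1.297 to 1.849 FPKM in normal cells. After withdrawal it was listed at 0 in HP cells and stood at 0.0791 FPKM in normal cells, and at 40 days it stood at 0.0665 FPKM in HP cells. These last 2 values rest on about 6 and 5 fragments and were not distinguishable from each other at this depth. In normal cells the log2 ratio for the withdrawal was -1.25. Its mean level was under 1 FPKM, so it was not in the limma fit.

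Nkd1, an inducible antagonist of Dishevelled, was under 1 FPKM in every library. Its gene is at mm9 chromosome 8, 91045243 to 91118786, plus strand. It stood at 0.145 FPKM in HP cells and 0.194 FPKM in normal cells with LIF, with overlapping counting intervals. After withdrawal it stood at 0.197 FPKM in HP cells and 0.450 FPKM in normal cells. At 40 days it was highest, at 0.905 FPKM in HP cells, with a counting interval of 0.769 to 1.06 FPKM. The log2 ratio of FPKM + 1 was 0.73 to HP cells with LIF and 0.67 to HP cells after withdrawal, both under 2-fold. Lgr5, an R-spondin receptor known as a Wnt target and stem cell marker of the intestine, is at mm9 chromosome 10, 114887367 to 115024836, minus strand. Lgr5 stood between 0.0111 and 0.0402 FPKM, about 2 to 7 fragments per library, and no difference in it was detectable at this depth.

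Dkk1, a secreted inhibitor that binds Lrp5 and Lrp6 and is itself induced by the pathway, was near 0 in 4 libraries and present at 40 days. Its gene is at mm9 chromosome 19, 30620353 to 30624155, minus strand. With LIF it stood at 0.0849 FPKM in HP cells and 0.0377 FPKM in normal cells, and after withdrawal at 0.0136 FPKM in HP cells and 0.0396 FPKM in normal cells. These are about 8, 4, 1 and 4 fragments, and their counting intervals overlap. At 40 days it stood at 6.94 FPKM in HP cells, about 659 fragments, with a log2 ratio of FPKM + 1 of 2.87 to HP cells with LIF. The limma effects of cell type and withdrawal on Dkk1 were 0.014 ± 0.13 and -0.048 ± 0.13 (SE, 4 libraries), with limma adjusted p values of 0.975 and 0.895. Dkk1 had a mean of at least 1 FPKM only through the 40 day library.

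Markers of primitive and visceral endoderm, the extraembryonic lineages of the early embryo, were also higher in the 40 day library. Of the 9 listed, the 5 above 0 in every library (Gata4, Gata6, Sox7, Foxa2 and Dab2) summed to 103 FPKM in HP cells at 40 days. Their sum was 4.38 FPKM in HP cells and 4.98 FPKM in normal cells with LIF. After withdrawal it was 2.88 FPKM in HP cells and 2.95 FPKM in normal cells. Gata6 stood at 7.88 FPKM and Dab2 at 52.0 FPKM at 40 days. Of the others, Sox17 was listed at 0 there, Afp was at 0 in every library, Ttr stood at 0.166 FPKM, and Sparc was listed at 0 in 2 libraries. All 9 summed to 104 FPKM in HP cells at 40 days and to 5.004 to 78.8 FPKM in the other 4 libraries, where the highest sum, of HP cells with LIF, held 74.3 FPKM of Sparc. The 5 trophoblast markers summed to 77.6 FPKM at 40 days and to 9.80 to 17.1 FPKM in the other 4 libraries. Among them the simple keratins Krt8 and Krt18 stood at 21.6 and 54.2 FPKM at 40 days, while the trophoblast factors Cdx2 and Elf5 stood at 0.294 and 0.0960 FPKM. The part of such cells in the levels of Dkk1 and Nkd1 at 40 days was not tested.

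**Figure D3:**
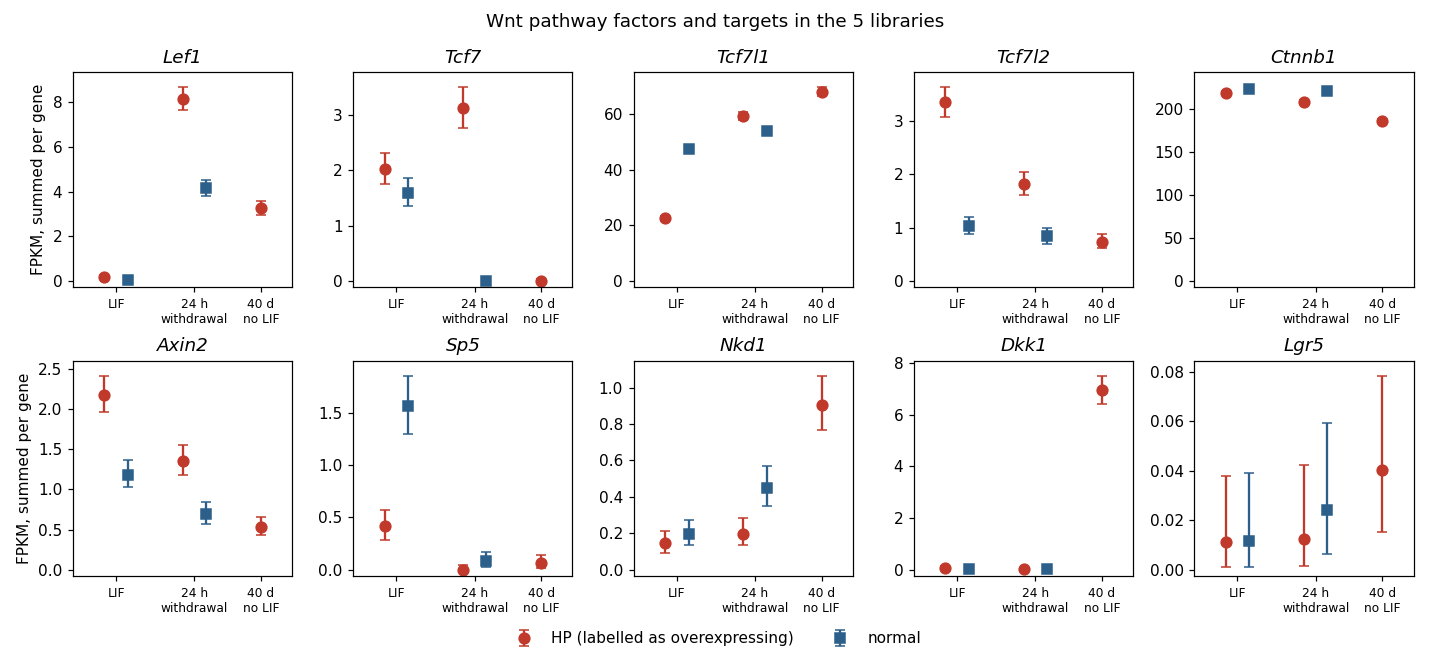
FPKM of each of the 10 genes (vertical axis, from 0, its own scale in each panel) in the 5 libraries by culture, with circles for HP cells, squares for normal cells and bars for approximate Poisson 95% intervals of counting error. Lef1 is at or above 3.26 FPKM only after LIF removal, Dkk1 reaches 6.94 FPKM only at 40 days, and Tcf7 is listed at 0 in 2 libraries.

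The 10 genes were next counted by a rule of size, a 2-fold difference of FPKM + 1 between 2 libraries, which is no test. With LIF, 2 of 10 differed between HP and normal cells, Tcf7l2 higher and Tcf7l1 lower, against 9.43% of the 9590 genes with a mean of at least 1 FPKM. After withdrawal 1 of 10 differed, Tcf7, which was listed at 0 in normal cells, against 9.37% of all genes. For the 24 h withdrawal in HP cells 2 of 10 differed, Lef1 and Tcf7l1, both higher, against 11.9% of all genes. In normal cells 3 of 10 differed, Lef1 higher and Sp5 and Tcf7 lower, the last of them listed at 0 after withdrawal, against 10.1%. The shares are over genes with a mean of at least 1 FPKM, which leaves out Sp5, Nkd1 and Lgr5. Without these 3 the count in normal cells was 2 of 7, and the other counts of calls were unaffected. For 40 days over LIF in HP cells 6 of 10 differed, with Lef1, Tcf7l1 and Dkk1 higher and Tcf7, Tcf7l2 and Axin2 lower, against 22.3%. Tcf7 is listed at 0 at 40 days, and without genes at 0 in the pair the count was 5. For 40 days over the 24 h withdrawal in HP cells 3 of 10 differed, with Dkk1 higher and Lef1 and Tcf7 lower, against 17.8%, and without genes at 0 the count was 2, Dkk1 and Lef1. Over the 7 genes alone, HP over normal cells gave 28.6% with LIF and 14.3% after withdrawal. The 24 h withdrawal gave 28.6% in each cell type, 40 days over LIF gave 85.7% and 40 days over 24 h gave 42.9%. These shares are above those of all genes, but 7 genes are few and the counts describe these libraries only. They also hold Tcf7 with its zeros, and Lef1 and Dkk1, which reached the mean of 1 FPKM only through libraries where they are high. The comparisons share libraries, so their counts are not independent of each other.

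Of the 10 genes, 7 had a mean of at least 1 FPKM and entered limma, while Sp5, Nkd1 and Lgr5 did not. At an adjusted p under 0.05 limma called 0 of 9590 genes (0%) for cell type and 0 (0%) for the withdrawal, so no gene of the 7 passed. At an unadjusted p under 0.05 it gave 918 genes for cell type and 1154 for the withdrawal. The fit has 1 residual degree of freedom, so that library noise and any unequal response of the cell types cannot be told apart, and a p-value measures only how far these 4 libraries agree.

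**Figure D4:**
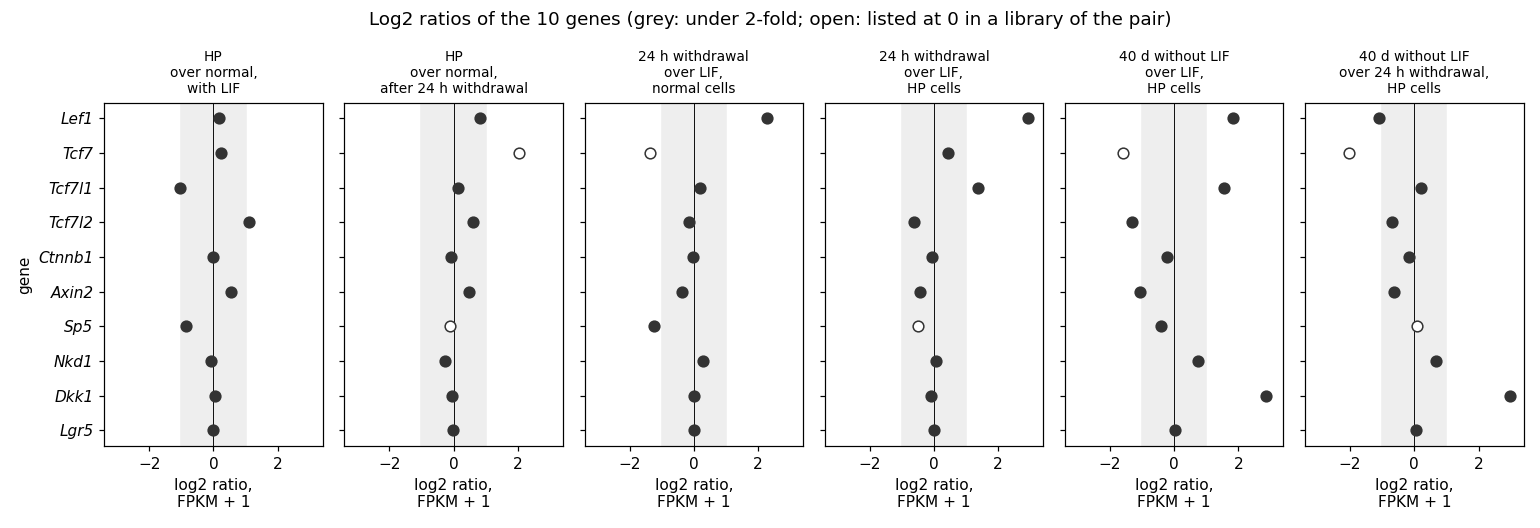
Log2 ratio of FPKM + 1 (horizontal axis) of each of the 10 genes in the 6 comparisons, with grey for differences under 2-fold and open circles where either library lists the gene at 0. Lef1 lies at 2.93 and 2.27 for the withdrawal in HP and in normal cells, and Ctnnb1 lies inside the grey band in all 6 panels.

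In the rest of the pathway, Wnt ligands were barely detected. All 19 had a mean under 1 FPKM, and their summed level was 2.97 FPKM in HP cells and 4.47 FPKM in normal cells with LIF. It was 1.23 FPKM in HP cells and 2.95 FPKM in normal cells after withdrawal, and 6.75 FPKM in HP cells at 40 days. Porcn, the enzyme that adds the lipid Wnt ligands need for secretion, stood at 9.22 FPKM in HP cells and 4.001 FPKM in normal cells with LIF, and at 5.42 FPKM in HP cells and 1.93 FPKM in normal cells after withdrawal. Its cell type effect was 1.08 ± 0.15 on the log2 scale (SE, limma, 4 libraries), higher in 2 of 2 cultures, with a limma adjusted p of 0.512. Wls, the carrier of Wnt ligands to the cell surface, had 1.04 FPKM in HP cells and 2.77 FPKM in normal cells with LIF, 2.31 FPKM in HP cells and 4.38 FPKM in normal cells after withdrawal, and 13.5 FPKM in HP cells at 40 days. The direction between HP and normal cells was therefore opposite for these 2 secretion genes.

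Of 8 Wnt receptors with a mean of at least 1 FPKM, 2 were at least 2-fold higher after withdrawal in HP cells (Fzd2 and Fzd7) and 1 lower (Fzd5), 37.5% against 11.9% of all genes. In normal cells 0 were higher and 1 lower, again Fzd5, which at 12.5% is close to the 10.1% of all genes. Fzd5 stood at 8.58 FPKM after withdrawal, against 21.3 FPKM with LIF in HP cells, and at 9.57 FPKM after withdrawal, against 23.5 FPKM with LIF in normal cells. Its withdrawal effect was -1.22 ± 0.10 (SE, limma, 4 libraries), lower in 2 of 2 cell types, with a limma adjusted p of 0.324. At 40 days Fzd5 stood at 4.85 FPKM, Fzd2 at 8.13 FPKM and the co-receptor Lrp5 at 16.7 FPKM. Lrp5 was lowest in HP cells with LIF, at 3.71 FPKM, against 7.86 FPKM in normal cells with LIF. Lgr4, a receptor of R-spondins, stood at 22.0 FPKM in HP cells and 11.6 FPKM in normal cells with LIF, at 25.8 FPKM in HP cells and 18.2 FPKM in normal cells after withdrawal, and at 29.6 FPKM in HP cells at 40 days.

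Of 5 secreted and membrane inhibitors with a mean of at least 1 FPKM, Sfrp2 was at least 2-fold higher after withdrawal in both cell types, and Sfrp1 at least 2-fold lower in HP cells. That is 40% of the 5 in HP cells, against 11.9% of all genes, and 20% in normal cells, against 10.1%. Sfrp1, a decoy of Wnt ligands, stood at 7.50 FPKM after withdrawal, against 23.6 FPKM with LIF in HP cells, and at 11.01 FPKM after withdrawal, against 21.6 FPKM with LIF in normal cells. Sfrp2, of the same family, stood at 12.4 FPKM after withdrawal, against 4.56 FPKM with LIF in HP cells, and at 13.2 FPKM, against 4.82 FPKM in normal cells. The withdrawal effects were -1.22 ± 0.22 for Sfrp1 and 1.28 ± 0.13 for Sfrp2 (SE, limma, 4 libraries), with limma adjusted p values of 0.345 and 0.324. Notum, an enzyme that removes the lipid of Wnt ligands, stood at 0.494 FPKM in HP cells at 40 days and between 4.88 and 7.74 FPKM in the other 4 libraries. Of the 12 Dishevelled and degradation complex genes with a mean of at least 1 FPKM, 0 reached 2-fold for the withdrawal in normal cells and 2 in HP cells, Csnk1e lower and Dvl3 higher. The 2 in HP cells are 16.7%, against 11.9% of all genes, and the 0 in normal cells stands against 10.1%. Dvl3 was listed at 0 in HP cells with LIF. Among 9 nuclear cofactors, Tle5, a short relative of the Groucho co-repressors, stood at 64.6 FPKM after withdrawal, against 126 FPKM with LIF in HP cells, and at 53.0 FPKM, against 117 FPKM in normal cells.

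Genes known to be repressed by Tcf7l1 in embryonic stem cells were lower after LIF removal. Of the 6 listed (Esrrb, Nanog, Klf2, Tfcp2l1, Nr5a2 and Tbx3), 6 were at least 2-fold lower for the withdrawal in HP cells and 4 in normal cells. Of all genes, 11.9% in HP cells and 10.1% in normal cells differed 2-fold either way. The median log2 ratio of the 6 genes was -1.97 in HP cells and -1.41 in normal cells. They are also genes of the naive state that LIF maintains, and the 2 roles cannot be told apart here. With LIF, where Tcf7l1 was lower in HP cells than in normal cells, the 6 genes had a median log2 ratio of HP over normal cells of 0.41. Nr5a2 was 2-fold higher, which is 16.7% of the 6, against 9.43% of all genes, and the other 5 were under 2-fold. Of these, Esrrb alone was lower in HP cells, at 139 FPKM, against 157 FPKM in normal cells. In normal cells, where 4 of the 6 were lower for the withdrawal, Tcf7l1 stood at 54.1 FPKM after withdrawal, against 47.5 FPKM with LIF. The part of Tcf7l1 in these levels was not tested. Among 15 further reported targets, only 4 had a mean of at least 1 FPKM, of which Ccnd1, a cyclin of the G1 phase, stood at 20.3 FPKM at 40 days and between 39.2 and 61.3 FPKM in the other 4 libraries. The mesoderm gene T, a classic Wnt target of the primitive streak, stood at or below 0.242 FPKM in all 5 libraries. Of 48 pathway genes with a mean of at least 1 FPKM, these 6 included, 14 (29.2%) differed 2-fold for the withdrawal in HP cells, against 11.9% of all genes, and 8 (16.7%) in normal cells, against 10.1%. For HP over normal cells the share was 6.25% in either culture, against 9.43% of all genes with LIF and 9.37% after withdrawal. For 40 days in HP cells the share was 41.7% over LIF, against 22.3% of all genes, and 10.4% over the 24 h withdrawal, against 17.8%. Without the 6 genes that Tcf7l1 represses, a set left out after the data were seen, 8 of 42 (19.0%) differed for the withdrawal in HP cells and 4 of 42 (9.52%) in normal cells. Also without them, the share for 40 days over LIF was 33.3% and for 40 days over 24 h 11.9%.

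The genes with the most similar profiles were found over the 5 libraries by the mean absolute difference of log2(FPKM + 1), each gene centred on its own mean, among the 8841 genes above 0 in every library. Nearest to Lef1 were Pou3f1 (0.21), a POU factor of the primed epiblast, Vrtn (0.22) and Sall2 (0.24). Pou3f1 stood at 37.7 FPKM after withdrawal, against 5.78 FPKM with LIF in HP cells, and at 17.7 FPKM, against 4.18 FPKM in normal cells. Nearest to Dkk1 was Gata6 (0.046), a factor of primitive endoderm, followed by Adm2 (0.053) and Timp2 (0.079). Their shared peak at 40 days follows from the measure, since Dkk1 was near 0 in every other library. Dkk1 and Gata6 both reached the mean of 1 FPKM only through the 40 day library. Nearest to Tcf7l1 were C2cd3 (0.044), Btbd9 (0.069) and Pdxdc1 (0.079), and nearest to Axin2 were Peak1 (0.068), Mprip (0.071) and Ifitm5 (0.072). For Tcf7l2 they were Cct8, Bdh2 and Gprasp2, at 0.095 to 0.10, and for Ctnnb1 they were Fxr2, H2bc3 and Taf7, at 0.015 to 0.021. With 5 libraries such a likeness rests on few points and shows no shared control.

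**Figure D5:**
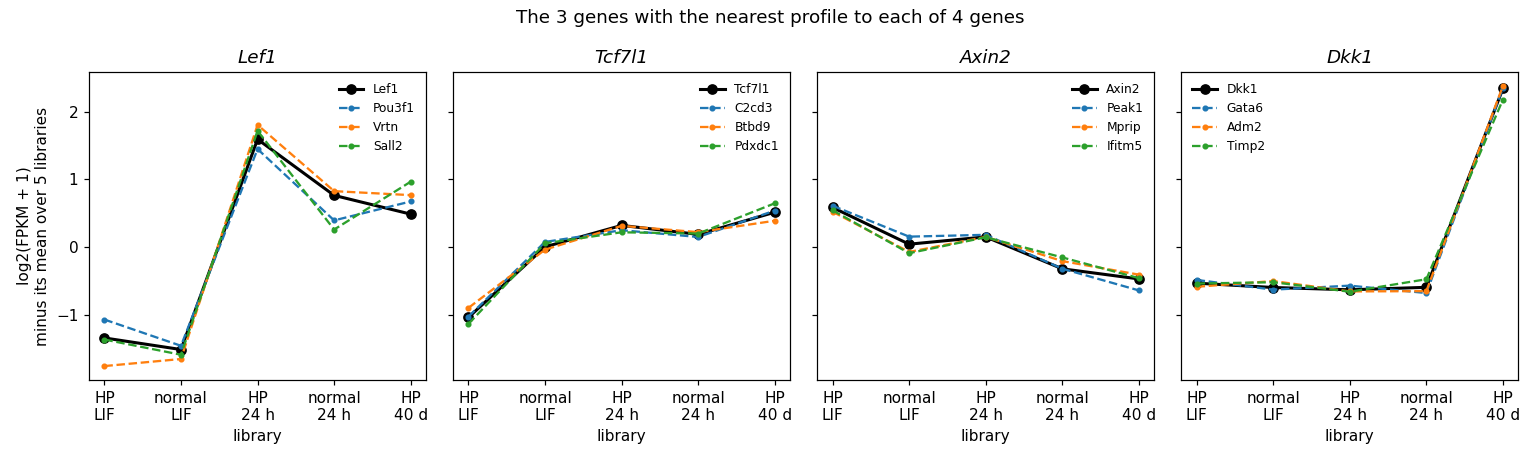
Profiles of Lef1, Tcf7l1, Axin2 and Dkk1 (black) and of the 3 genes nearest to each (dashed) over the 5 libraries, as log2(FPKM + 1) minus the gene's own mean. Lef1, Pou3f1, Vrtn and Sall2 are lowest in the 2 libraries with LIF, and Dkk1 and Gata6 are high only at 40 days.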

How the data were processed

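Per the labels' protocols, RNA of mouse E14 cells was made into 5 libraries with the TruSeq kit. The kit was taken to keep no strand information. The deposited table holds FPKM per RefSeq transcript, made by the authors with TopHat2 2.0.7 and Cufflinks 2.0.2 on mm9, per the submitters' processing notes, with further settings not given in the sources used here. Of 28698 transcripts, 28066 were paired with a symbol through a RefSeq table of GRCm38.p6, used for names only. FPKM was summed per gene, and 337 genes with a hyphen in any cell were left out, none of the 10 among them. Ratios used log2(FPKM + 1), which understates changes of low genes. Limma 3.58.1 (R 4.3.3) was fitted to 4 libraries with cell type and culture. It used eBayes with trend and Benjamini-Hochberg over the 9590 genes whose mean reached 1 FPKM. Simulated data with little noise served to check the code only, and say nothing of the power of the fit on these libraries. Depth was estimated over 6598 genes with a single transcript in both annotations. Fragment numbers use the longest coding Gencode transcript (mm9) and are approximate. Zeros can be failed estimates.

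The named genes were the 10 members, up to 3 genes per further Wnt list with the widest range and no library at 0, and the 3 nearest profiles per member; Fzd7, Dvl3, T and the other genes named for a count or as markers come from the same lists, and Tubb4b and Tuba1b were named after their values were seen. The members and lists were chosen with earlier results of these data known. Each group is 1 library, numbered by name only.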

Additional observations from a re-analysis of the deposited data

Results flagged for a closer look

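The ratio of HP over normal cells went in opposite directions in the 2 cultures for Tcf7l1, with a log2 ratio of -1.04 with LIF and 0.13 after the withdrawal, a difference of -1.17. With 1 library per group the difference between the cultures was not tested. It was picked out, among those of the 10 genes above 0 in every library, for opposite directions and a gap of at least 1 on the log2 scale. Groups of 1 library allow no search for a library far from others of its group.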

How the results depend on the processing

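With 1 library per group no replicate could be left out, and a difference between 2 libraries has no error of its own. No paired analysis was possible because each group holds 1 library and the labels give no replicate numbers, beyond the limma fit itself, which sets libraries of the same cell type or culture against each other. The number of the 10 genes at least 2-fold different between HP and normal cells with LIF, 2 as reported, was 1 under median-ratio scaling, 1 under quantile normalization and 1 with the highest transcript of each gene only, because Tcf7l1 was just under 2-fold with both scalings and the highest Tcf7l2 transcript did not reach it. After withdrawal the count of 1 was 2 with a pseudocount of 0.1, and 0 without genes listed at 0 in the pair, a choice made after seeing the data. For 40 days over 24 h the count of 3 was 6 with a pseudocount of 0.1, which lets low genes reach 2-fold. The other counts stayed within 1.5 times of the reported value under the alternatives run. Over all 9590 genes, 904, 899 and 971 genes differed 2-fold for HP over normal cells with LIF, the same after withdrawal, and the withdrawal in normal cells, against 541, 550 and 618 among the 8841 genes above 0 in every library. Limma called 0 genes for either effect under all 8 alternatives, with 875 to 1463 genes at an unadjusted p under 0.05 for cell type and 1105 to 1865 for the withdrawal. Of 60 ratios of single genes, 8 crossed 2-fold with a pseudocount of 0.1, 3 with 0.5, 1 under median-ratio scaling, 2 under quantile normalization and 2 with the highest transcript only; no ratio past 2-fold changed sign. Depth limits Lgr5 in all libraries, Dkk1 in the 4 libraries other than 40 days and Sp5 in the 3 libraries taken after LIF removal, each at 8 fragments or fewer.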
